A study of Mus musculus with 8 samples.

Results

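The genes described here encode ribosome biogenesis factors, the nucleolar proteins that build the ribosomal subunits. They were chosen by symbol: every Utp, Nop, Nol or Rrp gene whose symbol goes on with a digit, together with Dkc1, Nhp2, Gar1, Ncl, Npm1, Imp3, Imp4, Bop1, Pes1, Wdr12, Nat10 and Polr1a, and without Nop56, Nop58, Nol3, Nol4 and Nol4l. This gave 41 of the 24469 genes of the count table, and all 41 passed the filter on low counts, as did 13617 genes in all. The RNA came from islets picked by hand from the pancreas of mice aged 8 weeks, with 4 libraries from wild-type C57BL/6 mice and 4 from mice on that background that carry loss of function of the snoRNAs U32a, U33, U34 and U35a, which lie in introns of Rpl13a. No source used here gives the sex of the mice or says whether they were littermates. Each library comes from a different mouse, so the spread within a group includes both the animal and the islet preparation.

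RNA polymerase I transcribes a long ribosomal RNA precursor in the nucleolus. The small subunit processome, a large particle built around the box C/D snoRNA U3, folds and cuts the part that becomes the small subunit RNA. Other factors, such as the Pes1, Bop1 and Wdr12 complex, mature the large subunit RNAs. Box C/D snoRNAs such as those missing in the knockout guide 2'-O-methylation of these RNAs, while H/ACA snoRNAs, bound by Dkc1, Nhp2, Gar1 and Nop10, guide pseudouridylation.

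Assigned counts ran from 21235196 to 41148318 per library. Snord32a had 1 to 5 counts in each wild-type library and 0 in each knockout library, where a count of 0 allows up to 3. Snord33 had 2 and 4 counts in wild-type replicates 1 and 3 and 0 in the other 6 libraries, and Snord34 and Snord35a had 0 in all 8, so these counts do not check their loss. Beta-cell marker genes took 10.1 to 24.1% of assigned counts in wild type and 8.72 to 16.5% in knockout, and none of the 15 was at 0 in all libraries. Acinar marker genes, of the exocrine pancreas, took 2.22 to 28.9% in wild type and 5.8 to 30.4% in knockout. Wild-type replicate 1 stood apart, with the highest acinar share of its group, at 28.9%. Knockout replicate 2 had 0.818% of counts on liver genes, against 0.0202 to 0.0452% in the other 7 libraries. Xist had 11458 to 20935 counts in wild-type replicate 4 and knockout replicates 1 and 4 and 51 to 158 in the other 5. In bulk islet RNA, fewer cells of a type and less RNA per cell cannot be told apart. The row Rn45s, named for the whole rRNA precursor, took 36.7 to 38.9% of assigned counts in wild type and 36.8 to 41.3% in knockout. Counts of this row do not tell precursor from mature rRNA.

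The coding sequences of the members ranged widely in base composition, from 41.4% G and C in Nol8 to 62.7% in Imp3, with a median of 51.9%. The middle stretches of 5 of the 7 members with an unadjusted p under 0.05, chosen to span low and high content, are shown for this property, which the comparison of genotypes comes back to. Capitals mark G and C. They come from GENCODE M21 transcripts of GRCm38, and gene spans are those of RefSeq on GRCm38.p6, which is not the submitters' mm9. Utp20 lies at chr10:88746607-88826814, Nop14 at chr5:34638536-34660148, Nop9 at chr14:55745693-55755634, Nol6 at chr4:41114427-41124339 and Rrp7a at chr15:83115846-83122801.
Utp20 coding bases 4123 to 4242: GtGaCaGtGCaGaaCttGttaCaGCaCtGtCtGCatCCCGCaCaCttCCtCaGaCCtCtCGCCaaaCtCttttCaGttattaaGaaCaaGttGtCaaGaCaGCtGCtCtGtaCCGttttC
Nop14 coding bases 1231 to 1350: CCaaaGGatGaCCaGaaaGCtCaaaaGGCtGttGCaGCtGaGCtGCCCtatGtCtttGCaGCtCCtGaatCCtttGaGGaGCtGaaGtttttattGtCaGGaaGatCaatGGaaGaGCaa
Nop9 coding bases 895 to 1014: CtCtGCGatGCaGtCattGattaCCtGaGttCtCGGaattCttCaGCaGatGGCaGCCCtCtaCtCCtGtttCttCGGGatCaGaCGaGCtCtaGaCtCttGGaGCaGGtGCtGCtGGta
Nol6 coding bases 1669 to 1788: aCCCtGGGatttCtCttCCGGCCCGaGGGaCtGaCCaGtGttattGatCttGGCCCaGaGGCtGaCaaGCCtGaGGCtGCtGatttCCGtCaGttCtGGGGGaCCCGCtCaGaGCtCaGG
Rrp7a coding bases 361 to 480: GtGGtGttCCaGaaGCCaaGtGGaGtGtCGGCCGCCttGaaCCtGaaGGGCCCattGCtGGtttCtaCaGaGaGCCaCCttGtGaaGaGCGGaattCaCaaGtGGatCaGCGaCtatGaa
Over the whole coding sequence, G and C made up 46.6% of Utp20, 48.4% of Nop14, 56.7% of Nop9, 57.8% of Nol6 and 58.2% of Rrp7a.

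Upstream sequences were searched for CACGTG, the E-box that MYC-family factors bind, and for CCGGAAG or its complement CTTCCGG, an ETS-type motif. Both strands were searched in the 250 bases before each RefSeq start (GRCm38.p6), and 34 of the 41 members had an entry. The E-box occurred in 6 of the 34 members (17.6%), Imp4, Nol11, Nop2, Rrp7a, Utp14b and Utp18, and in 9.85% of the 10397 tested genes with an entry. The ETS-type motif occurred in 8 of the 34 (23.5%) and in 14.8% of the tested genes. The upstream sequences of Utp20, with neither motif, Rrp7a, with the E-box, and Nol7, with the ETS-type motif, are shown because these 3 members had among the smallest p-values. Capitals mark the motifs.
Utp20 upstream, chr10:88826815-88827064, - strand: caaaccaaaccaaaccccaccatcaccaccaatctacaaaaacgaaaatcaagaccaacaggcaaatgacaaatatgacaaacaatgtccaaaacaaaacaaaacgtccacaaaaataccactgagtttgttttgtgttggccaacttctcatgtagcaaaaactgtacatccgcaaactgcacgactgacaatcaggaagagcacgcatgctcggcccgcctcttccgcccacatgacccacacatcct
Rrp7a upstream, chr15:83122802-83123051, - strand: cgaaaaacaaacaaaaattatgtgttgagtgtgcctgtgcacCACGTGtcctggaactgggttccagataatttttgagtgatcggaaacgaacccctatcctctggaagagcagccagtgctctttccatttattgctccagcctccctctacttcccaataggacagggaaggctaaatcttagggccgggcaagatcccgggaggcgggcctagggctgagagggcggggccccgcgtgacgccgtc
Nol7 upstream, chr13:43398126-43398375, + strand: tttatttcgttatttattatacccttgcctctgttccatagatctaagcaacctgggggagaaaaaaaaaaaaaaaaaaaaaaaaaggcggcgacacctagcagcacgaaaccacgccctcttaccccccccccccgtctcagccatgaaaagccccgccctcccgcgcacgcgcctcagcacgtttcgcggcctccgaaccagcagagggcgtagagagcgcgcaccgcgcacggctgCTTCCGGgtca
Of the 6 members with the E-box, 3 had a positive log2 fold change, as did 19 of the 28 without it. The MYC family itself had 7 genes tested, with 0 at an unadjusted p under 0.05 and 0 past the adjusted threshold of 0.05 by edgeR quasi-likelihood. Myc was at 6.8 ± 2.6 CPM (assigned counts per 1000000, with TMM factors for composition; mean ± SD, n = 4) in wild type and 9.73 ± 4.67 CPM in knockout. The MYC antagonists Mnt and Mxd4 had log2 fold changes of -0.42 ± 0.20 and -0.18 ± 0.15.

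Most of these transcripts were present at low levels in wild-type islets, and 2 nucleolar proteins stood far above the rest. Per kilobase of coding sequence, Npm1 (nucleophosmin, a nucleolar chaperone) had a mean of 112 CPM and a range of 108 to 122 over the 4 wild-type libraries. Ncl, the gene of nucleolin, followed on the same scale with 78.7 CPM (71.9 to 87.0). Its range did not overlap that of Npm1, nor that of Imp3 below it, at 40.2 CPM (34.0 to 49.8). Imp3 encodes a protein that joins U3 snoRNA to the ribosomal RNA precursor. Nop10, the smallest H/ACA protein, was next at 25.6 CPM per kilobase (17.9 to 33.3), and its range overlapped that of Rrp1 at 22.1 CPM (18.3 to 23.8). At the lower end, Rrp12, an export and processing factor, had 1.18 CPM per kilobase (0.899 to 1.38), and Nop9 had 1.24 CPM (1.07 to 1.64). Ranges of neighbours in the middle of this order mostly overlapped. Coding length leaves out UTRs, so these levels are approximate.

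**Figure D1:**
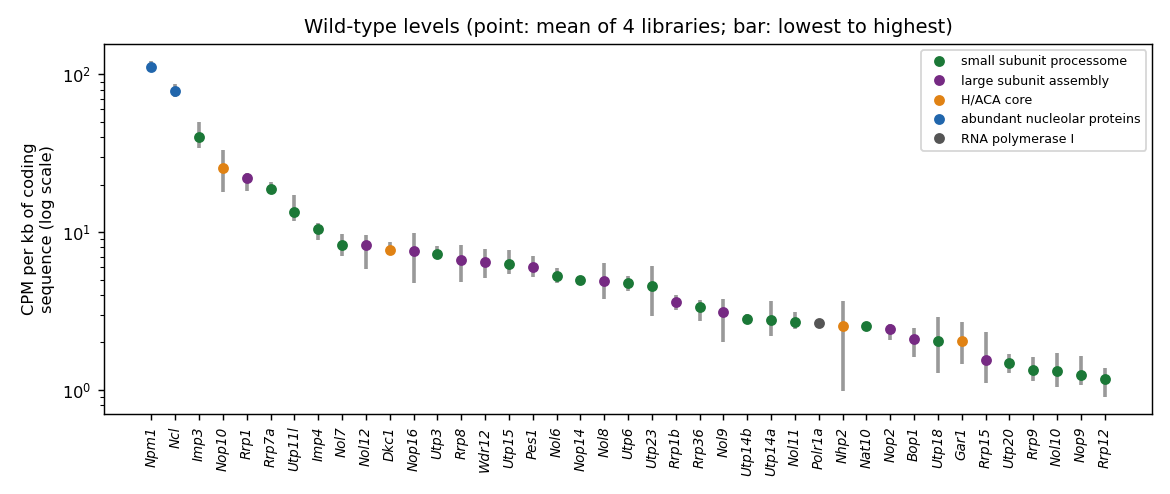
Wild-type level of each of the 41 members on a log axis, in CPM per kilobase of coding sequence, with points for the mean and bars from the lowest to the highest of 4 libraries, coloured by role. Npm1 at 112 and Ncl at 78.7 stand above the others, and Rrp12 is lowest at 1.18.

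The comparison of genotypes asked whether islets without the 4 snoRNAs hold different levels of the transcripts for the ribosome assembly machinery. None of the 41 members had an adjusted p under 0.05, taken over all genes, by edgeR quasi-likelihood, where 0.0147% of the 13617 genes tested did (2 genes). An unadjusted p under 0.05 was reached by 7 members (17.1%), 4 higher and 3 lower in the knockout, beside 18.7% of all genes tested. A share this near the background is not a result about the members. By direction, 8.42% of all genes had such a p and were higher and 10.3% were lower. DESeq2, which gave an adjusted p to 36 of the 41, called 1 member, Utp20, beside 5.34% of the genes it tested. So did limma-voom with library weights, beside 6.16%, while limma-voom without weights and limma-trend called 0 members. The median log2 fold change of the members was 0.033, beside 0.010 over all genes tested, and 26 of 41 (63.4%) had a positive value, beside 51.3% of all genes. With no composition factor the members' median was -0.065 and that of all genes -0.111. The median size of the log2 fold change, regardless of sign, was 0.157 in the members and 0.206 in all genes tested.

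In the main fit, with composition factors, differences were bounded within 2-fold for most members. The 95% interval of the log2 fold change lay within 0.5 either way, a 1.41-fold difference, for 19 of the 41, and within 1 either way, a 2-fold difference, for 40. The exception was Rrp15, a large subunit factor with low counts, whose interval ran from -0.28 to 1.01. Intervals excluded 0 for the same 7 members that had an unadjusted p under 0.05. These bounds depend on the scaling, and no intervals were computed without composition factors. In that fit 0 members had an unadjusted p under 0.05 by edgeR, beside 5.29% of all genes.

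**Figure D2:**
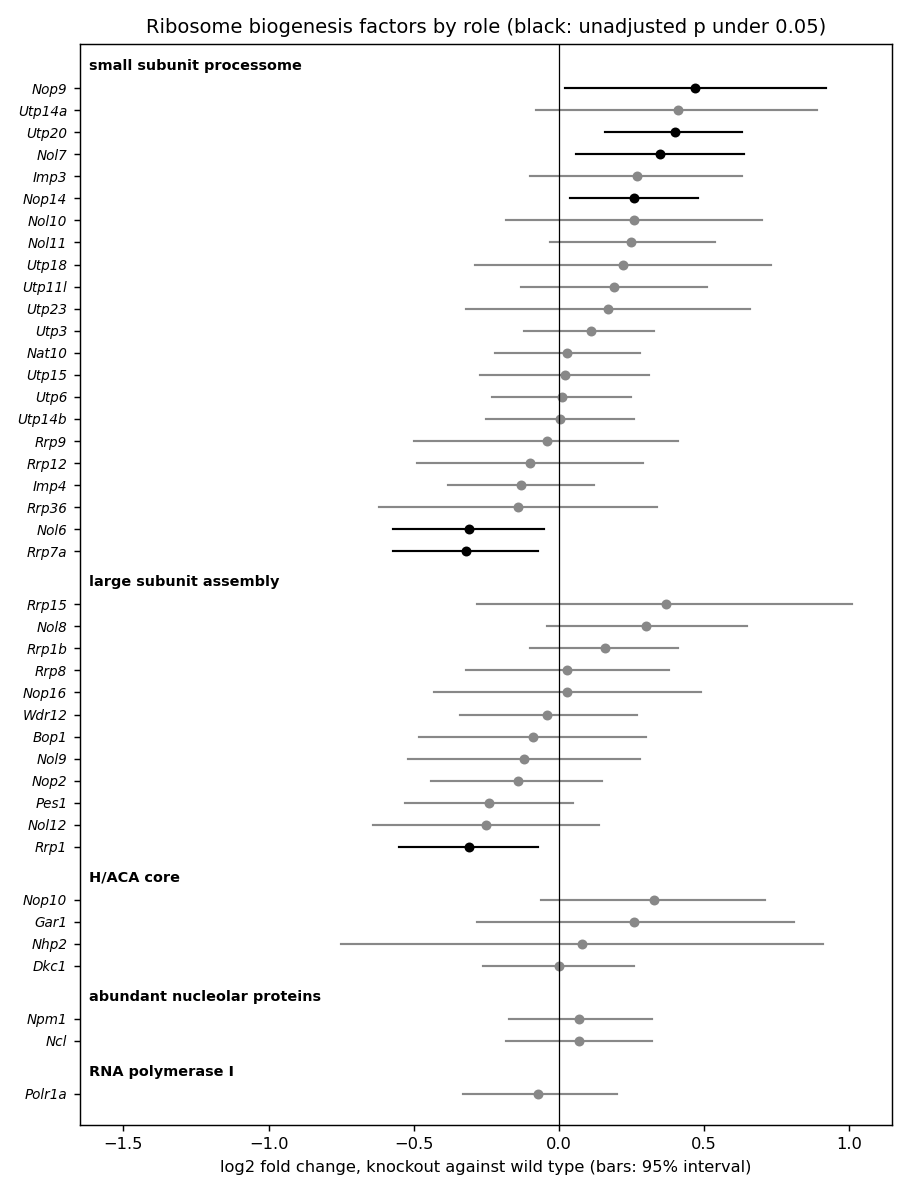
Log2 fold change of each member, knockout against wild type, with 95% intervals from edgeR, grouped by role; black marks an unadjusted p under 0.05. Values run from -0.32 for Rrp7a to 0.47 for Nop9, and 4 of the 7 black points lie to the right of 0.

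Among the 22 small subunit processome genes, 16 had a positive log2 fold change, with a median of 0.137, which was 0.210 without wild-type replicate 1. An unadjusted p under 0.05 was reached by 4 that were higher and 2 that were lower in the knockout, and 0 passed the adjusted threshold by edgeR. These 6 were 27.3% of the group, beside 18.7% of all genes, and the difference between these shares was not tested. Utp20 encodes a very large scaffold of helical repeats in the processome. It was measured at 14.2, 10.8, 12.2 and 12.4 CPM in wild-type replicates 1 to 4 and at 17.1, 16.5, 16.7 and 15.1 CPM in knockout replicates 1 to 4. Every knockout value exceeded every wild-type value, and the groups overlapped for the other 40 members. In all genes tested 8.34% had groups that did not overlap, 3.68% with the knockout higher and 4.66% with it lower, beside 1 of 41 members (2.44%). The log2 fold change of Utp20 was 0.40 ± 0.11 (SE), with an unadjusted p of 0.0031 and an adjusted p of 0.144 in edgeR's test.

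Nop14, which binds Noc4l and Emg1 in the processome, had 13.6, 12.5, 13.0 and 12.5 CPM in wild type and 16.8, 13.5, 15.5 and 16.2 CPM in knockout. Only knockout replicate 2 reached down to the wild-type range, and the log2 fold change was 0.26 ± 0.10 (edgeR adjusted p = 0.216). Of its partners, Emg1, a ribosomal RNA methyltransferase, had a log2 fold change of 0.26 ± 0.21 and Noc4l of -0.0045 ± 0.16.

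Nol7, a nucleolar protein of early small subunit processing, stood at 7.4, 6.77, 5.36 and 5.85 CPM in wild type and at 8.0, 7.27, 8.92 and 8.29 CPM in knockout. Wild-type replicate 1 lay just above knockout replicate 2, and the other libraries kept to their groups. The estimate for Nol7 was 0.35 ± 0.13 (edgeR adjusted p = 0.207). Nop9, an RNA-binding protein that in yeast shields a cleavage site of the precursor, was at 3.13, 2.05, 2.11 and 2.18 CPM in wild type and 2.65, 4.04, 2.78 and 3.6 CPM in knockout. Here wild-type replicate 1 lay within the knockout range and the other 3 wild-type libraries lay below all knockout libraries. Nop9 had the largest estimate of the members, 0.47 ± 0.21 (edgeR adjusted p = 0.249), and it was 0.62 without wild-type replicate 1.

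Of the 22 processome genes, 6 had estimates below 0, and 2 of these had an unadjusted p under 0.05 by edgeR. Those 2 encode proteins whose yeast counterparts, Utp22 and Rrp7, sit in a single subcomplex. Nol6, the counterpart of Utp22, was at 16.4, 17.1, 19.3 and 20.4 CPM in wild type and 17.6, 14.7, 13.3 and 13.4 CPM in knockout. Knockout replicate 1 lay inside the wild-type range and the other 3 knockout libraries lay below it. Rrp7a had 15.2, 16.0, 17.6 and 14.8 CPM in wild type and 14.9, 13.2, 11.2 and 11.8 CPM in knockout, with knockout replicate 1 again touching the wild-type range. Nol6 had a log2 fold change of -0.31 ± 0.12 and Rrp7a of -0.32 ± 0.11 (edgeR adjusted p = 0.214 and 0.193). The yeast subcomplex also holds Rrp36, and the mouse gene Rrp36 had a log2 fold change of -0.14 ± 0.22. This grouping was made after the values were seen and carries no test. The authors' counts of Rrp7a and Nol7 were not whole numbers in 8 and 7 libraries, so these values depend on how the authors divided reads among annotations, which is not given.

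**Figure D3:**
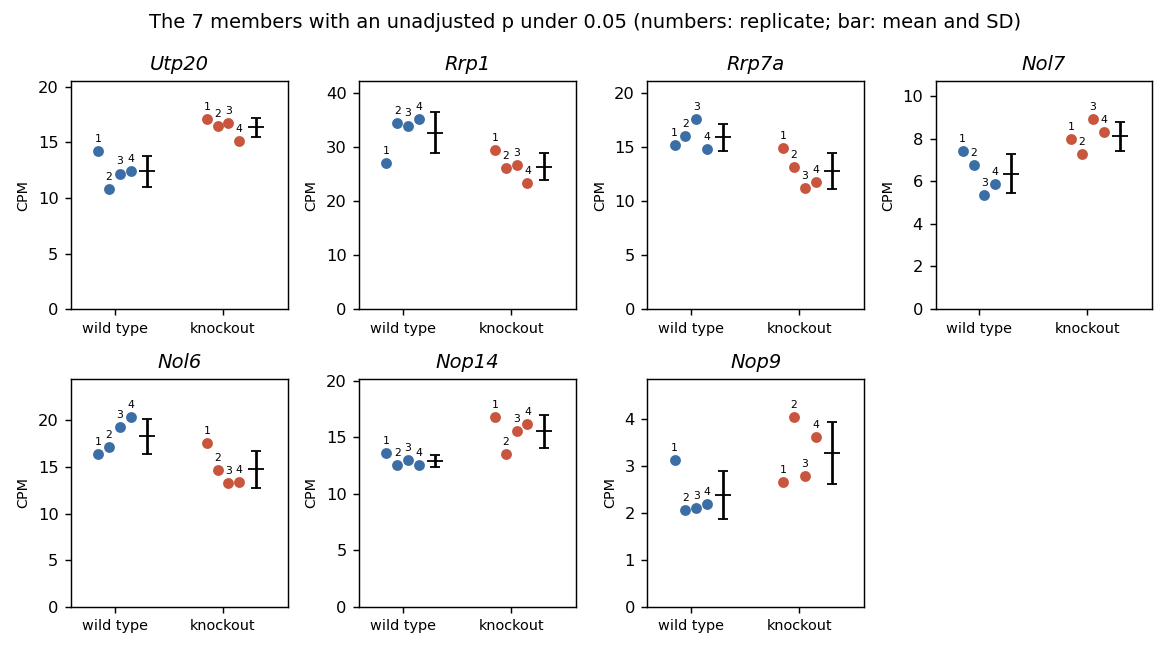
CPM in each library for the 7 members with an unadjusted p under 0.05, with replicate numbers beside the points and bars for mean and SD (n = 4); each axis starts at 0. The groups are separate for Utp20 alone, and wild-type replicate 1 lies nearest to or within the knockout range for Utp20, Rrp1, Nol7, Nol6, Nop14 and Nop9.

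The other processome genes had estimates from -0.14 to 0.41 with unadjusted p-values above 0.05. Of the U3-associated proteins, Imp3 had a log2 fold change of 0.27 ± 0.16, Imp4 of -0.13 ± 0.11 and Rrp9, which binds U3 itself, of -0.04 ± 0.21; their partner Mphosph10 had 0.39 ± 0.22. Among proteins of the subcomplex that links transcription and processing, Utp15 had 0.02 ± 0.13 and Nol11 0.25 ± 0.13, and Heatr1, Wdr43, Wdr75 and Cirh1a had 0.23, 0.18, 0.38 and 0.02. Utp14a, which works with a helicase in releasing U3, had 0.41 ± 0.22, while its autosomal copy Utp14b, known for its need in mouse spermatogenesis, had 0.0035 ± 0.12. Their values are uncertain as near copies, and both had counts that were not whole in 7 or 8 libraries. Utp18, Utp11l, Utp23, Utp3 and Utp6 had estimates of 0.22, 0.19, 0.17, 0.11 and 0.01, and Nol10 of 0.26. Rrp12 stood at -0.10 ± 0.18. Nat10, the enzyme that acetylates cytidines of small subunit RNA, was at 7.4, 7.92, 7.71 and 8.29 CPM in wild type and 9.12, 8.28, 7.6 and 7.04 CPM in knockout. The knockout values of Nat10 spread to both sides of the wild-type range, and the log2 fold change was 0.03 ± 0.12, with a 95% interval from -0.22 to 0.28.

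Of the 12 large subunit members, 5 had estimates above 0 and 7 below it. Their median log2 fold change was -0.064, and 1, Rrp1, had an unadjusted p under 0.05 by edgeR (8.33%, beside 18.7% of all genes). On leaving out wild-type replicate 1 this median was -0.035, and removing the GC trend gave 0.008. Whether it differs from that of the small subunit genes was not tested. The 43 large subunit genes outside the members did not share this split, with 28 estimates above 0, 15 below it and a median of 0.10. Rrp1, a nucleolar protein of large subunit maturation, had 27.1, 34.4, 34.0 and 35.2 CPM in wild type and 29.4, 26.1, 26.6 and 23.4 CPM in knockout. Wild-type replicate 1 lay within the knockout range, well apart from the other 3 wild-type libraries. The estimate was -0.31 ± 0.11 (edgeR adjusted p = 0.192), and without wild-type replicate 1 it was -0.41 with an edgeR adjusted p of 0.0263. Its paralog Rrp1b had 0.16 ± 0.12.

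Pes1, Bop1 and Wdr12 form the PeBoW complex, which is needed to process large subunit RNA. Pes1 was at 10.2, 9.06, 12.4 and 10.3 CPM in wild type and 10.6, 8.05, 8.79 and 8.1 CPM in knockout. Bop1 had 4.21, 3.55, 5.18 and 5.43 CPM in wild type and 5.41, 3.72, 3.84 and 4.34 CPM in knockout. For Wdr12 the values were 8.32, 6.5, 8.02 and 9.86 CPM and 7.12, 7.89, 8.88 and 8.0 CPM. The groups overlapped for all 3 genes, and log2 fold changes were -0.24 ± 0.13, -0.09 ± 0.18 and -0.04 ± 0.14 (edgeR adjusted p = 0.336, 0.801 and 0.906). The interval for Pes1 ran from -0.53 to 0.05.

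Of the enzymes that modify or trim large subunit RNA, Nop2, a cytosine methyltransferase, had -0.14 ± 0.13 and Rrp8, an adenine methyltransferase, 0.03 ± 0.16. Nol9, a polynucleotide kinase, had -0.12 ± 0.18 and Nol12, whose yeast counterpart is an exonuclease, -0.25 ± 0.18. The assembly factors Nol8, Rrp15 and Nop16 had 0.30 ± 0.16, 0.37 ± 0.30 and 0.03 ± 0.21. Rrp8 was the only member on chromosome 7, which carries Rpl13a, and lay 285 tested genes from it.

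The H/ACA proteins had no member at an unadjusted p under 0.05 and a median log2 fold change of 0.17, which was 0.348 without wild-type replicate 1. Dkc1, the pseudouridine synthase, was at 13.2, 11.4, 11.4 and 11.1 CPM in wild type and 13.3, 10.3, 13.0 and 10.6 CPM in knockout. Both groups spanned nearly the same range, and the log2 fold change was -0.00028 ± 0.12 with an interval from -0.26 to 0.26. Nop10 had 6.39, 3.43, 4.8 and 5.04 CPM in wild type and 5.59, 6.29, 6.63 and 6.1 CPM in knockout, so that 3 wild-type libraries lay below all knockout libraries and wild-type replicate 1 did not. It had an estimate of 0.33 ± 0.17 (edgeR adjusted p = 0.324).

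Gar1, an H/ACA protein with glycine- and arginine-rich tails, was at 1.86, 1.02, 1.73 and 1.01 CPM in wild type and 1.76, 1.57, 1.63 and 1.77 CPM in knockout. Nhp2 had 1.66, 0.452, 1.69 and 0.896 CPM in wild type and 1.41, 0.978, 1.5 and 1.09 CPM in knockout. These low transcripts had 15 to 57 counts per library, and the wild-type libraries bracketed the knockout libraries for both. Log2 fold changes were 0.26 ± 0.25 for Gar1 and 0.08 ± 0.38 for Nhp2, whose interval from -0.75 to 0.91 does not exclude differences near 2-fold.

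The abundant nucleolar proteins and the polymerase had small estimates. Ncl was at 185, 171, 160 and 152 CPM in wild type and 205, 156, 181 and 160 CPM in knockout. Npm1 had 107, 95.8, 96.1 and 94.3 CPM in wild type and 96.6, 91.0, 126 and 101 CPM in knockout. In both genes the knockout libraries covered the whole wild-type range or nearly so, and the log2 fold change was 0.07 ± 0.11 for each; both were -0.07 with no composition factor. Their counts were not whole in 7 or 8 libraries, so reads may be divided with related sequences. Polr1a, the catalytic subunit of RNA polymerase I, had 12.7, 14.3, 13.2 and 14.2 CPM in wild type and 16.1, 12.6, 11.4 and 11.9 CPM in knockout. Knockout replicate 1 was the highest of all 8 libraries and the other 3 knockout libraries lay below the wild-type range, with an estimate of -0.07 ± 0.12 and an interval from -0.33 to 0.20.

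The rest of the pathway was read from lists of genes that are not members. None of the genes in these lists had an adjusted p under 0.05 by edgeR. DESeq2 called 1 of them, Esf1, beside 5.34% of all genes it tested. With library weights, limma-voom called 6 of them, beside 6.16% of all genes: Esf1, Krr1, Cebpz, Gtpbp4, Nmd3 and Taf1c. Without wild-type replicate 1, edgeR called 5 of the small subunit genes (Esf1, Krr1, Mphosph10, Ngdn and Wdr75), 4 of the large subunit genes (Brix1, Cebpz, Gtpbp4 and Nmd3) and, of the MYC family, Mnt, beside 9.46% of all genes. At an unadjusted p under 0.05, the share was 15% of the other small subunit genes, 14.0% of the other large subunit genes, 25.0% of the RNA polymerase I list, 13.3% of the exosome list and 6.25% of the box C/D list, beside 18.7% of all genes. Of 40 other small subunit genes tested, a list that also holds the splicing factor Sf3b1, 5 were higher and 1 was lower at an unadjusted p under 0.05 and the median log2 fold change was 0.12. Esf1, a nucleolar processing factor, had 0.47 ± 0.14 and Tsr3, which modifies a base of small subunit RNA, -0.35 ± 0.13. Of 43 other large subunit genes 5 were higher and 1 was lower (median 0.10), among them the GTPase gene Gtpbp4 at 0.44 ± 0.16 and the export adaptor Nmd3 at 0.48 ± 0.18. The RNA polymerase I machinery had 2 of 12 higher and 1 lower (median -0.039, or -0.059 without wild-type replicate 1 and 0.036 with the acinar covariate). Taf1c and Taf1d, which encode parts of the same promoter selectivity factor, had log2 fold changes of -0.68 ± 0.21 and 0.47 ± 0.15 (edgeR adjusted p = 0.170 and 0.175). The genotypes did not overlap for these 2 of the 12 (16.7%), beside 8.34% of all genes, and the difference between these shares was not tested. The RNA exosome had 1 of 15 higher, C1d at 0.39 ± 0.17, and 1 lower, Exosc5 at -0.39 ± 0.18. In the list of box C/D proteins and snoRNP assembly, 1 of 16 was higher, the assembly factor Nufip1 at 0.44 ± 0.19, and Nhp2l1, which binds the snoRNA fold, had -0.19 ± 0.10. For the host gene Rpl13a the log2 fold change was -0.10 ± 0.16. The core box C/D proteins Nop56, Nop58 and Fbl had 0.12 ± 0.14, 0.21 ± 0.14 and 0.09 ± 0.13, and none of the 3 had an unadjusted p under 0.05.

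With composition factors applied, the level of the H/ACA group followed the order of exocrine RNA in each genotype, and the other role groups did so in part or not at all. For each library the median deviation over a group's genes, in log2 units from the wild-type mean, was set beside the share of counts on acinar genes. The H/ACA proteins had -0.42 in wild-type replicate 2 (2.22% acinar), -0.14 in replicate 4 (5.32%), 0.17 in replicate 3 (15.6%) and 0.42 in replicate 1 (28.9%). In the knockout they had 0.05 in replicate 2 (5.8%), 0.20 in replicate 4 (19.2%), 0.29 in replicate 1 (24.1%) and 0.36 in replicate 3 (30.4%). Libraries with more acinar RNA had higher values on this scale in each genotype, and the ranges of the genotypes overlapped. For the small subunit processome the 4 wild-type values in the same order of acinar share were -0.13, -0.07, -0.01 and 0.20, and the knockout values were 0.02, 0.15, 0.18 and 0.12. For large subunit genes they were -0.34, 0.11, 0.04 and 0.17 in wild type and -0.11, -0.04, 0.02 and -0.02 in knockout, so these followed the acinar order less closely. Ncl and Npm1 together had 0.00, -0.09, -0.05 and 0.14 in wild type and -0.10, -0.01, 0.14 and 0.24 in knockout. Polr1a fell with acinar share in wild type, at 0.07, 0.06, -0.04 and -0.10, and had -0.11, -0.19, 0.24 and -0.25 in knockout. These directions depend on the composition factors. As a plain share of assigned counts, all members together fell with acinar share. In the same order, they took 0.0752, 0.0708, 0.0577 and 0.0485% in wild type and 0.0755, 0.0655, 0.0526 and 0.0454% in knockout. All 35 acinar genes tested had a positive log2 fold change between genotypes, with a median of 0.52 that was 1.47 without wild-type replicate 1, none was at 0 in all libraries, and 1 had an unadjusted p under 0.05. When acinar share was a covariate, median log2 fold changes were 0.056 for the small subunit genes, -0.089 for the large subunit genes, 0.038 for the H/ACA proteins and -0.004 for all members. In that fit 6 members had an unadjusted p under 0.05, beside 15.7% of all genes. Beyond this covariate, the part of acinar RNA in these values was not tested. Beta-cell markers were negative for 14 of 15 genes, 9 of them at an unadjusted p under 0.05, and their part in the members' values was not tested.

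**Figure D4:**
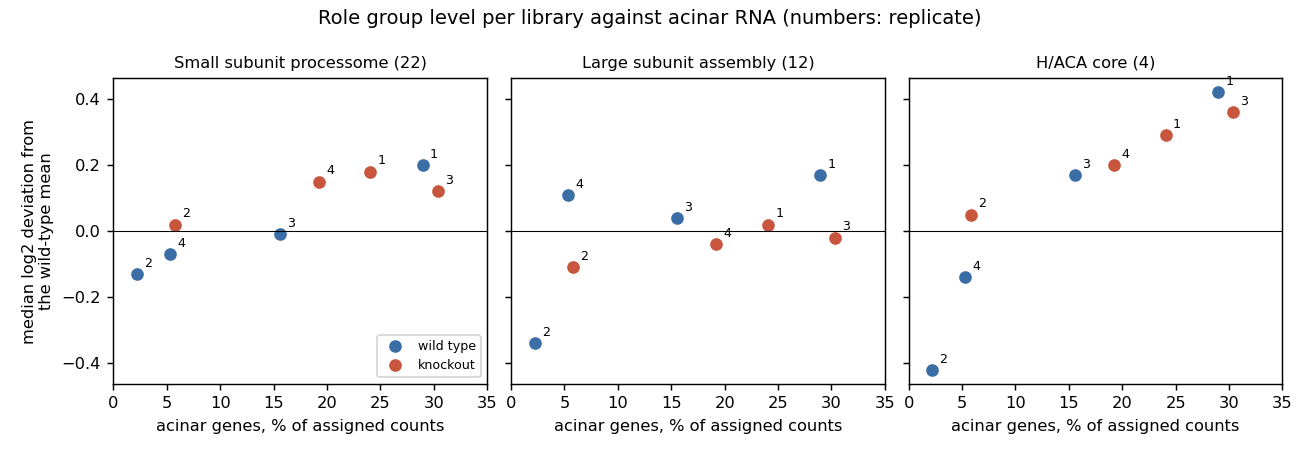
Median log2 deviation from the wild-type mean over the small subunit (22), large subunit (12) and H/ACA (4) genes in each library, against the percentage of assigned counts on acinar genes, with replicate numbers beside the points. In the H/ACA panel values run from -0.42 at 2.22% acinar to 0.42 at 28.9%. All deviations include the composition factors.

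In CPM with composition factors, wild-type replicate 1 was often the highest wild-type library for these genes. It held the highest CPM of its group for 26 of the 41 members (63.4%), beside 31.3% of all genes tested, and wild-type replicate 2 held the lowest for 23, beside 26.8% of all genes. By plain share of assigned counts, the members together were lowest in wild-type replicate 1, at 0.0485%. The other wild-type libraries had 0.0577 to 0.0752%. Without wild-type replicate 1, Utp20 (log2 fold change 0.46, edgeR adjusted p = 0.0212) and Rrp1 passed the adjusted threshold, 2 of 41 members beside 9.46% of 13874 genes tested. Without that library, 0 members passed when the acinar share was added as a covariate, beside 1.95% of all genes, and 0 when the GC trend was removed, beside 2.41%. In the fit without either correction 13 members had an unadjusted p under 0.05, beside 28.0% of all genes, and 10 had groups that did not overlap, beside 25.6%. The count of 7 members with an unadjusted p under 0.05 was 3 when wild-type replicate 3 or, in its place, replicate 4 was left out. It was 4 on leaving out knockout replicate 3 and 2 on leaving out knockout replicate 4. The share of all genes with such a p was lower in these 4 fits as well, at 12.6, 11.3, 14.2 and 13.7% in the same order.

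The direction of the estimates differed with base composition, among the members as among all coding genes. Of the 21 members at or under the median of 51.9% G and C in the coding sequence, 18 had a positive log2 fold change (85.7%), with a median of 0.17. Of the 20 above it, 8 were positive (40.0%), with a median of -0.10. Without wild-type replicate 1 the medians were 0.27 and -0.06, and with the acinar covariate they were 0.06 and -0.14. The same cut in all coding genes tested gave 70.6% positive among 5672 genes at or under it and 36.2% among 7278 above it. Across the 41 members Pearson's r between GC content and log2 fold change was -0.40 and Spearman's rho was -0.40, and across 12950 coding genes they were -0.26 and -0.41. These describe genes of the same 8 libraries, which are not independent replicates. Rrp1, Rrp7a and Nol6, the 3 members lower at an unadjusted p under 0.05 by edgeR, had 56.1 to 58.2% G and C. Utp20 and Nop14 had 46.6 and 48.4%. Nop9 was higher in the knockout at 56.7% G and C, as was Nol7 at 52.4%. Imp3, with the most G and C, had a log2 fold change of 0.27 ± 0.16.

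By library, the members of low GC content had median deviations of 0.19, -0.08, -0.03 and -0.06 in wild type and 0.21, -0.01, 0.20 and 0.14 in knockout. Those of high GC content had 0.17, -0.23, 0.13 and 0.00 in wild type and 0.02, -0.16, -0.05 and -0.02 in knockout. Both sets were high in wild-type replicate 1, and only the low set was high in knockout replicates 1, 3 and 4. With a GC trend removed from each library the medians were 0.09 and 0.05, and the members with an unadjusted p under 0.05 numbered 3, beside 14.1% of all genes. The trend was fitted over all genes, members included, so this fit narrows the gap between the sets by construction and is no test. In that fit Utp20 had a log2 fold change of 0.28, Rrp1 -0.18, Rrp7a -0.16, Nol6 -0.15 and Nop14 0.18, while Nol7 and Nop9 had 0.36 and 0.60. Coding length had a rho of -0.05 with the members' log2 fold changes.

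**Figure D5:**
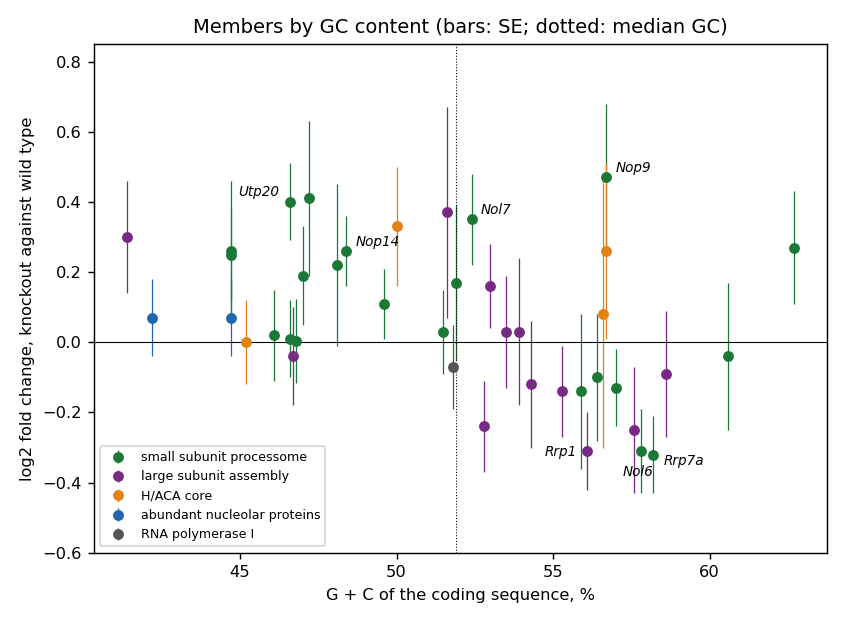
Log2 fold change of each member (knockout against wild type, bars of 1 SE from edgeR) against the G and C percentage of its coding sequence, coloured by role; the dotted line marks the median of 51.9%. Of the 21 members at or left of the line 18 lie above 0, and of the 20 to its right 8 do.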

How the data were processed

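The authors deposited estimated counts per gene for 8 libraries, each column matched to a sample by its title. Per the file header and values, 9.98 to 12.4% of the deposited counts in a library were not whole within 0.01, so counts were rounded. The authors' second table holds RPM, relative to a larger total than the assigned counts (which were 52.5 to 60.9% of it), plus an offset of 0.0001. The submitters' processing notes name STAR 2.4.1, Partek and mm9; no source used here states their roles, the annotation or strandedness.

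The main test was edgeR 4.0.16 in R 4.3.3 on all genes: TMM, filterByExpr, the robust quasi-likelihood test between genotypes, and Benjamini-Hochberg adjustment over 13617 genes. The common biological coefficient of variation was 0.239. Standard errors and 95% intervals come from the F statistic. Coding length and GC content came from GENCODE M21 by symbol (98.5% of genes, 41 of 41 members; Utp11l as Utp11). Upstream sequences are RefSeq's. No 2 libraries were copies (smallest shift 26.4 times sampling noise). Intervals cover the spread of these libraries.

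Members, role groups and lists were chosen with earlier results of these data known. Values in every library are given for members with an unadjusted p under 0.05 (up to 12) and for 11 members of named complexes or steps, and the 2 genes of smallest p are named in each pathway list; Emg1, Noc4l, Mphosph10, Heatr1, Wdr43, Wdr75 and Cirh1a were added as partners after their values were seen, and so were the GC split and the GC alternatives. Alternatives were other scalings, filters and tests (DESeq2 1.42.0, limma 3.58.1), covariates and libraries left out.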

Additional observations from a re-analysis of the deposited data

Results flagged for a closer look

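In CPM with composition factors, wild-type replicate 1 stood apart from the other 3 wild-type libraries in 4 of the members with values for every library. Rrp1 was at 27.1 CPM in it and at 34.0 to 35.2 CPM in the others. Nop9 was at 3.13 CPM against 2.05 to 2.18, Dkc1 at 13.2 CPM against 11.1 to 11.4, and Npm1 at 107 CPM against 94.3 to 96.1. In each case the gap to the nearest library was past Dixon's 95% critical value as a share of the group's range, which chance passes in about 1 in 20 groups, and 48 groups were examined. The same library had 28.9% of its counts on acinar genes, against 2.22 to 15.6% in the other wild-type libraries, and the part of this in the 4 values was not tested. As a plain share of assigned counts, the members together were lowest of the wild-type libraries in it, at 0.0485%.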

How the results depend on the processing

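Over 26 alternatives the median log2 fold change of the members stayed within 1 SD between libraries (0.13) of its value of 0.033, from -0.081 with limma-trend on log2 RPM plus 0.1 to 0.118 without wild-type replicate 1. Of 466 tested values of the 18 members given in every library, 425 kept their direction and side of the threshold and 4, of Utp20 and Rrp1, passed it. Scaling without a composition factor moved the median of all genes to -0.11, and RPM plus 0.1 moved it to -0.13.

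The count of genes past an adjusted p of 0.05, 2 in the test reported, was 48 with no composition factor, 51 and 58 with limma-trend on log2 RPM plus 1 and plus 0.1, 525 with DESeq2, 839 with library weights, and 3 at a threshold of 0.10; it was 2 to 1313 when a library was left out, and without wild-type replicate 1 it was 271 with the acinar covariate and 335 with the GC trend removed. Members past it numbered 1 with DESeq2 (Utp20 at 0.39), 1 with library weights (Utp20 at 0.41) and 0 to 2 with a library left out. Members whose groups did not overlap numbered 0 with no composition factor (1.01% of all genes), 2 without Rn45s, Lars2 and Mir6236 in library sizes (8.27%), 2 with no filter (6.16%), and 1 to 10 with a library left out (9.84 to 25.6%). Members with an unadjusted p under 0.05 numbered 0 with no composition factor (5.29% of all genes) and with both limma-trend fits (7.17 and 7.06%), 12 with library weights (27.9%), 3 with the GC trend removed (14.1%), and 2 to 13 with a library left out (11.3 to 28.0%). The causes of these shifts were not tested.

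Among these 18, the direction changed only for those with estimates within 0.093 of 0. Of all 41 members, 19 changed direction in at least 1 alternative. Past that limit these were Utp3, at -0.01 with no composition factor and -0.03 and -0.04 with limma-trend; Imp4 and Rrp12, at 0.01 and 0.03 with the GC trend removed; and, with that trend and wild-type replicate 1 removed, also Nol12 (0.01), Nol9 (0.07) and Nop2 (0.02). Dkc1 was 0.0014 with RLE factors, 0.00015 without acinar and islet genes in library sizes, 0.02 with library weights and 0.01 with Xist as a covariate. Ncl was -0.07 with no composition factor, -0.08 with both limma-trend fits and -0.08 with the GC trend removed; Npm1 was -0.07, -0.08 and -0.12 in those fits and -0.0036 with the acinar covariate. Nat10 was -0.11 with no composition factor, -0.03 with library weights, and -0.10 and -0.12 with limma-trend. Nhp2 was -0.14 with the acinar covariate and Bop1 0.08 with the GC trend removed. With a library left out, Dkc1 ran from -0.07 to 0.06, Nat10 from -0.05 to 0.09, Ncl from -0.02 to 0.12, Npm1 from -0.04 to 0.13, Nhp2 from -0.19 to 0.29 and Wdr12 from -0.13 to 0.07. Without wild-type replicate 1, Nhp2 was -0.24 and Npm1 -0.06 with the acinar covariate, and Ncl was -0.07, Npm1 -0.13, Nat10 -0.01 and Bop1 0.08 with the GC trend removed.

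No source used here says whether same-numbered replicates were paired. Their deviations correlated at 0.0383, 0.21, 0.156 and 0.147 for numbers 1 to 4. Wild-type replicates 2, 3 and 4 each correlated best with the knockout replicate of the same number. Wild-type replicate 1 correlated best with knockout replicate 3, at 0.287. Whether the libraries are paired was not tested. With the replicate block 2 genes and 0 members passed, and the members' median was 0.065. In that fit 6 members had an unadjusted p under 0.05 by edgeR, beside 16.2% of all genes. Low counts limit Nhp2, Gar1 and Rrp15, whose standard errors were 0.25 to 0.38.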
